A study of Mus musculus with 22 samples.

Results

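Hypothalami of all 18 mice bearing a Lewis lung carcinoma were set against those of 4 mice without a tumour. The question was which genes changed on average over the stages of tumour growth. These 22 mice make up the whole series. Lewis lung carcinoma is a transplantable tumour line that grows in C57BL/6 mice and in which animals lose weight. The mice were male C57BL/6, 6 weeks old at inoculation and housed singly, and under anaesthesia a hind leg muscle received the tumour cells. Hypothalami were taken under ketamine and xylazine from 5 tumour-bearing mice on day 10, 7 on day 14 and 6 on day 17, and from 4 controls on day 14. The labels do not say whether controls received a sham injection, and days 10 and 17 had no controls of their own, so a difference in day is part of the pooled contrast. The labels number the samples of a group as replicates, taken here as 1 mouse each, and p-values measure only the spread between these samples. Each day entered with equal weight, as the mean of the 3 tumour-bearing group means minus the control mean.

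The hypothalamus holds the neurons that set hunger, body temperature, growth hormone release and the stress axis, and it is reached by hormones and cytokines from the blood. A growing tumour and the host response to it release such cytokines, and adrenal glucocorticoids rise in sick animals. Neuropeptide Y neurons of the arcuate nucleus, which carry the ghrelin receptor, stimulate feeding, and proopiomelanocortin neurons restrain it. The title of the series concerns food intake and serotonin signalling.

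Values are log2 expression from 1 array per mouse, so a difference of 1 is a doubling, and levels are compared between mice for the same gene only. Of 18820 genes, 13789 had a mean above 3.87, taken as background because 95% of probe sets for olfactory and vomeronasal receptors lie below it. Array medians lay between 5.27 and 5.34. All 18 hypothalamus markers lay above background, with a list mean of 6.70 to 6.89 in controls and 6.61 to 6.92 in tumour-bearing mice. Controls 1 and 3 stood apart in 13 markers of the neighbouring thalamus, with list means of 6.78 and 7.19 against 6.17 and 6.09 in controls 2 and 4. Tumour-bearing mice lay between 6.02 and 6.81, the highest being replicate 2 of day 14 and, at 6.61, replicate 1 of day 17. All 13 thalamus markers had a lower mean in tumour-bearing mice, with 0 called and an unadjusted p below 0.05 for 9. Hybridised RNA came from bulk tissue, in which fewer cells of a type and less RNA per cell cannot be told apart.

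The fit called 121 genes changed (limma, Benjamini-Hochberg adjusted p below 0.05 over 18820 genes), which is 0.643% of those tested. It tested the mean of the 3 days, termed a change over all stages here, and not each day. Each day alone against control gave 20 called genes on day 10, 41 on day 14 and 211 on day 17. Without day 17 in the mean, 36 of the 121 genes stayed called. Of the 121 genes, 66 were higher (0.351%) and 55 lower (0.292%) in tumour-bearing mice. The rises were the larger changes, with a median of 0.53 against -0.29 for the falls. A change of at least 1 was reached by 10 genes, all higher, and a change of at least 0.5 by 36 higher and 2 lower genes. An unadjusted p below 0.05 was found for 2776 genes (14.8%), where 941 would be expected by chance. The split between rises and falls depended on scaling, since median-centred arrays gave 107 rises and 23 falls, and a further quantile normalization gave 76 rises and 29 falls.

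How many genes passed rested on the 4 controls. The count was 2, 11 and 6 without control 1, 2 or 3 and 181 without control 4, and among single tumour-bearing mice it fell to 72 without replicate 4 of day 10 and 79 without replicate 2 of day 17 and reached 195 without replicate 6 of day 14. Acer2 and Oasl2 were called in all 22 of these fits (highest limma adjusted p = 0.0219 and 0.0304). The other named genes below lost their call without control 1, and without control 2 or 3 they lost it apart from Fcrls, Car9, Isg20 and Osmr (called without control 2) and Ghsr (called without control 3). The thalamus markers moved with these controls: 27 genes passed once the list mean was a covariate. When the 4 arrays with most thalamus signal were dropped, which leaves 2 controls, 0 passed and 1369 genes had an unadjusted p below 0.05. Among the 121 genes, all kept their sign in that fit and 116 an unadjusted p below 0.05, with a median absolute change of 0.32 against 0.38. The record also falls into its first 9 samples, with 1 control, and its last 13, with 3 controls, whose array SDs were 2.25 to 2.28 and 2.29 to 2.33; the labels name no batch. Within the last 13, 0 genes passed and 2421 had an unadjusted p below 0.05, including all 121 with their sign kept. Lcn2 changed by 1.86 and 2.49 in the last and first samples, Oasl2 by 0.68 and 0.83 and Nts by -0.46 and -0.82. These same arrays had served to select the 121 genes.

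**Figure D1:**
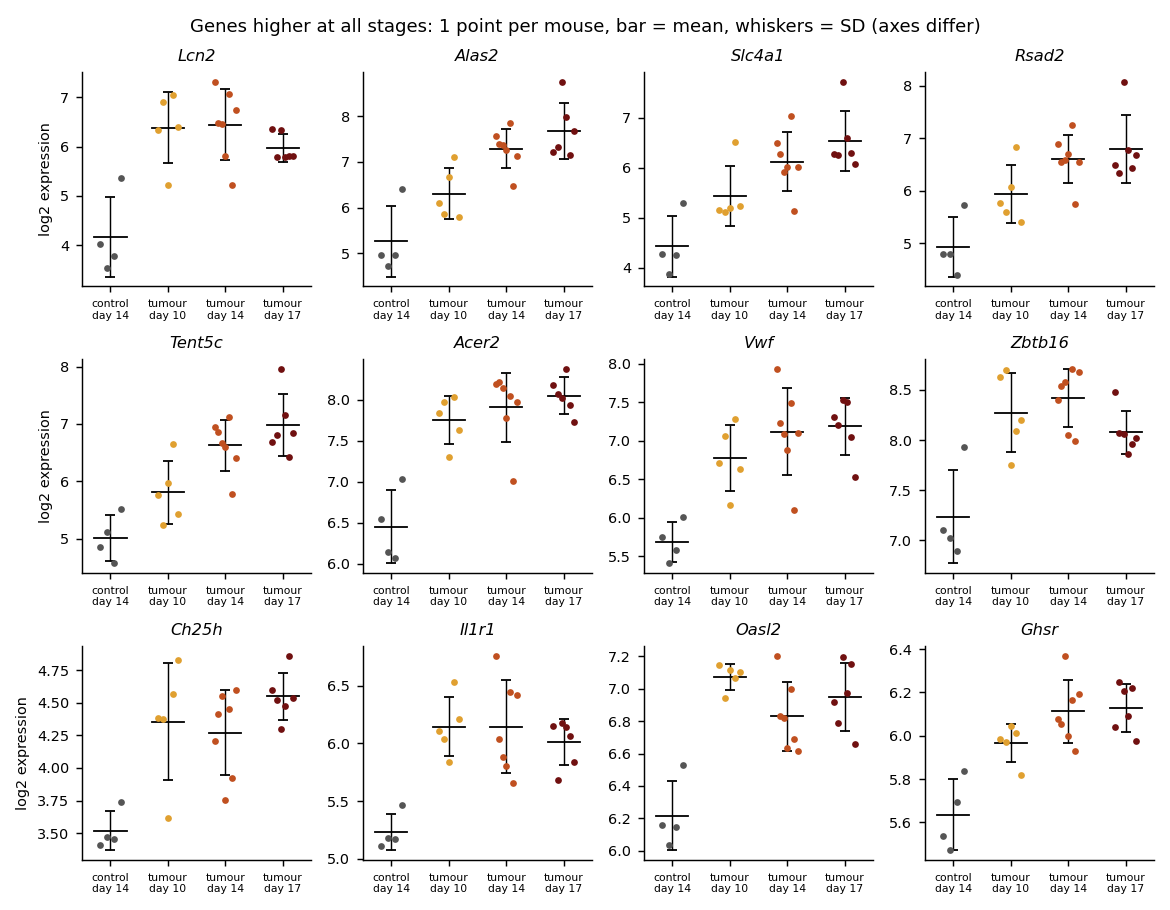
Log2 expression of 12 genes called higher over all stages, 1 point per mouse, for 4 controls and the tumour-bearing mice of days 10, 14 and 17, with bars for group means and whiskers for SD and a separate axis for each gene. In Vwf, Il1r1 and Oasl2 every tumour-bearing mouse lies above every control, and control 4 is the highest control in all 12 panels.

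Genes of the acute-phase and cytokine response were among the largest rises. Of 57 measured members of that list, 6 rose and 0 fell, or 10.5% called against 0.643% of all genes, and the list's median change was 0.10 against -0.0042 over all genes. Lcn2 encodes lipocalin 2, a secreted acute-phase protein that binds iron-carrying siderophores. Its level was 4.02, 3.53, 3.78 and 5.35 in controls 1 to 4, and the tumour-bearing mice ran from 5.22 to 7.32 with a median of 6.34. Control 4 overlapped the 2 lowest tumour-bearing mice, and 16 of 18 lay above every control. Lcn2 rose by 2.10 ± 0.33 (SE of the fit, limma adjusted p = 0.00568), or 4.28-fold, with changes of 2.21, 2.27 and 1.81 on days 10, 14 and 17.

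Receptors of inflammatory cytokines were among these rises. Il1r1, the signalling receptor of interleukin 1, was at 5.11, 5.18, 5.17 and 5.46 in controls and from 5.66 to 6.76 (median 6.09) in tumour-bearing mice, so the groups did not overlap. It rose by 0.87 ± 0.15 (adjusted p = 0.00717), and by 0.91, 0.91 and 0.78 on the 3 days. Osmr, a receptor subunit for oncostatin M, rose by 0.63 ± 0.10, with 17 of 18 tumour-bearing mice above every control. Cxcl9, a chemokine gene induced by interferon gamma, rose by 0.88 ± 0.19 (adjusted p = 0.0341) from a control mean of 3.45, below background. Its change was 1.21 on day 10 and 0.65 on day 17, and 16 of 18 tumour-bearing mice exceeded the highest control. Markers of circulating leukocytes lay near background, with 2 of 16 above it, list means of 3.31 to 3.46 in controls and 3.36 to 3.65 in tumour-bearing mice. Their mean was higher in 14 of 16, and 6 (37.5%) were higher at an unadjusted p below 0.05 against 5.83% of all genes, with 0 called. Their part in these rises was not tested. With the red cell markers as a covariate, the median change of the acute-phase and cytokine list was 0.06.

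Interferon-stimulated genes had the largest median shift of the 21 pathway lists. Of 50 measured, 9 rose and 0 fell (18.0% called, against 0.643% of all genes). Their median change was 0.27, and 62.0% were higher at an unadjusted p below 0.05 against 5.83% of all genes. Oasl2, of the oligoadenylate synthetase family, stood at 6.16, 6.04, 6.14 and 6.53 in controls and between 6.62 and 7.20 (median 6.96) in tumour-bearing mice. The groups did not overlap, and Oasl2 rose by 0.73 ± 0.10 (adjusted p = 0.00176), with 0.86, 0.61 and 0.73 on days 10, 14 and 17. Rsad2, which encodes the antiviral protein viperin, was at 4.80, 4.79, 4.40 and 5.73 in controls and from 5.41 to 8.07 (median 6.55) in tumour-bearing mice. Control 4 lay above the 2 lowest tumour-bearing mice. Rsad2 rose by 1.52 ± 0.28 (adjusted p = 0.0115), 1.01 on day 10, 1.68 on day 14 and 1.87 on day 17. Isg20, an exonuclease gene, rose by 1.28 ± 0.20, and Ube2l6, the conjugating enzyme for the ubiquitin-like protein ISG15, by 1.12 ± 0.20.

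Promoters of this list often carried the letters of an interferon response element. The motif, GAAA repeated after any 2 bases, searched on both strands in windows from 250 bases before to 50 after the transcription start (RefSeq, GRCm38.p6), was found in 19 of 37 list genes with a window, or 51.4%, against 3.99% of 27025 genes. It was present in 4 of the 7 called members that had a window, and the next lines show stretches of Rsad2 (chr12:26456533-26456602, minus strand) and Ifit3 (chr19:34583377-34583446, plus strand) because these called genes rose by 1.52 and 0.59 and hold it upstream of the start. Capitals mark the motif, here in its reverse orientation (TTTC, any 2 bases, TTTC), which begins 120 and 122 bases before the start.
Rsad2: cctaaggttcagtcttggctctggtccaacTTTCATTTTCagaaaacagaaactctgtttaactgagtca
Ifit3: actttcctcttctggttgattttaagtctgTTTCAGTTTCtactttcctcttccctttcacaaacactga
A match is a description of the letters and does not show that a factor bound there.

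Genes of class I antigen presentation, which interferon also induces, included further rises. Of 21 measured, 3 rose and 0 fell (14.3% called against 0.643% of all genes), and the median change was 0.14. H2-K1, a class I heavy chain, was at 5.49, 5.69, 5.55 and 5.95 in controls and from 5.82 to 6.48 (median 6.17) in tumour-bearing mice. It rose by 0.52 ± 0.10 (adjusted p = 0.0165), with 14 of 18 tumour-bearing mice above every control. Tap1, which carries peptides into the endoplasmic reticulum, rose by 0.42 ± 0.09, and the non-classical class I gene H2-T23 by 0.28 ± 0.06. Tap1 changed by 0.45, 0.40 and 0.42 on the 3 days and H2-T23 by 0.36, 0.28 and 0.21. With the red cell markers as a covariate, the list's median was 0.05, and 0 of 21 members had an unadjusted p below 0.05 in either direction, against 10 higher and 1 lower without it. The marker mean itself differed between groups, and over all genes that fit left 720 with such a p, against 2776 without it. A part of red cells in the class I rises was not tested.

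Red cell genes were among the largest rises. Alas2 encodes the enzyme that starts heme synthesis in red cell precursors, and its transcript is carried by young red cells in blood. It stood at 4.97, 4.72, 4.96 and 6.41 in controls and between 5.80 and 8.75 (median 7.25) in tumour-bearing mice, with control 4 above the 3 lowest of them. Alas2 rose by 1.83 ± 0.29 (adjusted p = 0.00623), and its changes of 1.04, 2.03 and 2.42 on days 10, 14 and 17 gave an unadjusted p of 0.000853 in an F test among tumour-bearing days, which was not called over all genes. Slc4a1, which encodes the band-3 chloride-bicarbonate exchanger of red cells, rose by 1.60 ± 0.30, with 13 of 18 tumour-bearing mice above every control. Tent5c, a poly(A) polymerase gene found in red cell precursors and plasma cells, rose by 1.46 ± 0.25. Of 9 measured red cell markers, 8 had a higher mean and these 3 were called (33.3%, against 0.643% of all genes). The list mean was 4.55 to 4.99 in controls and 4.90 to 6.03 in tumour-bearing mice. Globin genes were not analysed here.

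Part of the interferon list moved with red cell genes from mouse to mouse. Within the 18 tumour-bearing mice, after each value was set relative to its day mean, Rsad2 followed Alas2 with Pearson r = 0.96 and Spearman rho = 0.93 (permutation within days, adjusted p = 8e-05 and 5.33e-05 over 16 genes). Ube2l6 and Isg20 gave r = 0.92 and 0.91 and rho = 0.91 and 0.85, and the red cell marker Tent5c gave r = 0.97. Without the 2 mice farthest from the median of Alas2 these r were 0.93, 0.87, 0.83 and 0.95. They were 0.97, 0.92, 0.97 and 0.97 in the first 9 samples of the record (8 tumour-bearing mice), and 0.95, 0.95, 0.86 and 0.98 in the last 13 (10 tumour-bearing mice). The interferon genes Ifit3 and Ifitm3 gave r = 0.57 and 0.55 (permutation, adjusted p = 0.0427 each) but rho = 0.46 and 0.55 with adjusted p = 0.137 and 0.0667. Oasl2 gave r = 0.43, Lcn2 0.35, Acer2 0.37 and Zbtb16 -0.12, none past the threshold. For Acer2, r was -0.22 in the first and 0.63 in the last samples. The relation to Alas2 was looked for after the values were seen, and 1e-05 is the smallest p that 100000 permutations can give.

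With the mean of the 9 red cell markers as a covariate, the changes of Rsad2, Isg20, Ube2l6 and Slc4a1 were 0.11, 0.30, 0.23 and 0.08. In the same fit Acer2 kept 0.90, Lcn2 0.99, Ch25h 0.84, Zbtb16 0.78 and Oasl2 0.41. The list contains Alas2, Slc4a1 and Tent5c and its mean itself differed between groups, so the fit also removes other differences between groups. It called 0 genes (720 had an unadjusted p below 0.05), and 73 of the 121 genes kept their sign with such a p. For the interferon list, the median change was 0.05 and 4 members were higher at an unadjusted p below 0.05, against 31 without the covariate.

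**Figure D2:**
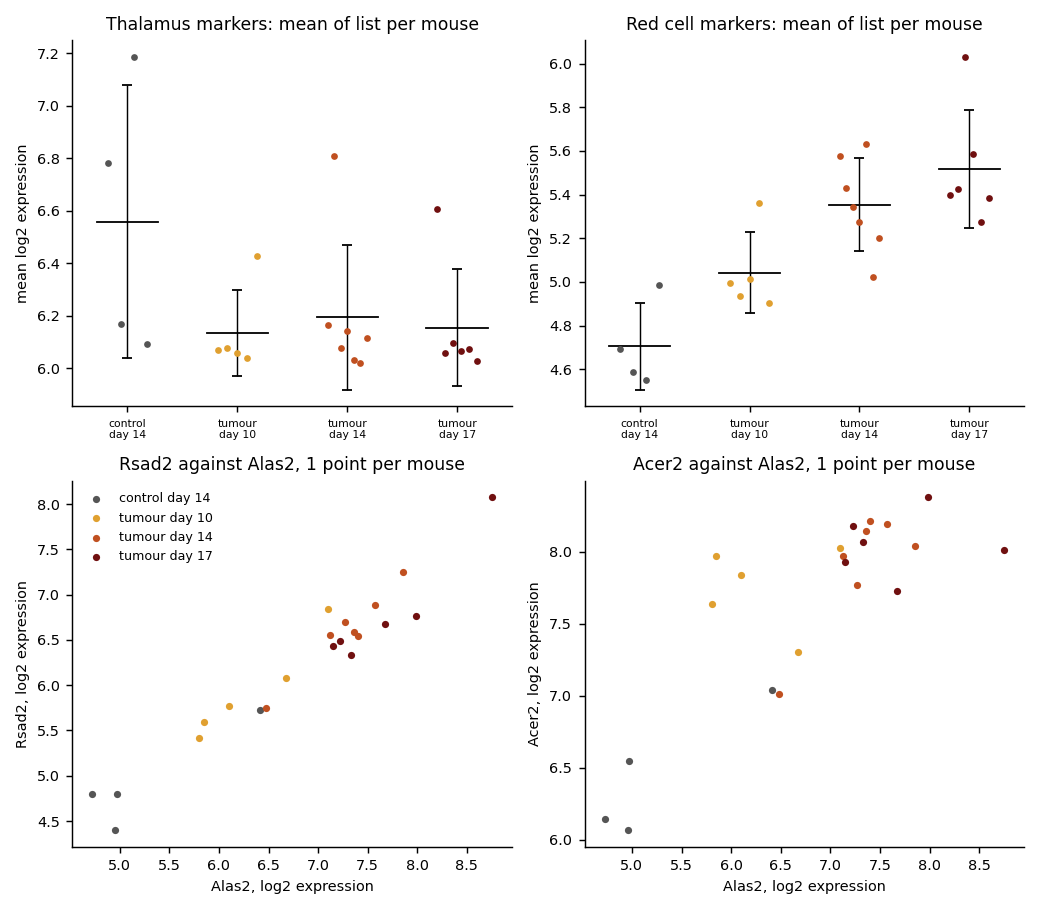
Mean log2 expression of 13 thalamus markers and of 9 red cell markers per mouse by group (bars: means, whiskers: SD), and log2 expression of Rsad2 and of Acer2 against Alas2 with 1 point per mouse. Controls 1 and 3 stand highest in thalamus markers among controls, at 6.78 and 7.19, and Rsad2 follows Alas2 more closely than Acer2 does, with day-centred r of 0.96 and 0.37.

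Glucocorticoid-responsive genes had the highest share called of the 21 pathway lists. Of 35 measured, 7 rose and 0 fell (20.0% called, against 0.643% of all genes). The median change was 0.19, and 60.0% were higher at an unadjusted p below 0.05, against 5.83% of all genes. With the red cell markers as a covariate, the list's median was 0.13 and 0 members were called. In that fit 6 members were higher at an unadjusted p below 0.05, against 21 without the covariate. Lcn2 is also a member. Zbtb16, a zinc finger transcription factor gene that glucocorticoids induce, was at 7.11, 7.02, 6.89 and 7.93 in controls and from 7.76 to 8.71 (median 8.15) in tumour-bearing mice. Control 4 overlapped the 2 lowest tumour-bearing mice, and Zbtb16 rose by 1.02 ± 0.17 (adjusted p = 0.00688), or 2.03-fold. Its change was 1.04 on day 10, 1.18 on day 14 and 0.84 on day 17. Map3k6, a stress-activated kinase gene, was at 4.65, 4.60, 4.54 and 4.78 in controls and from 4.83 to 5.61 (median 5.10) in tumour-bearing mice, with no overlap, and rose by 0.49 ± 0.09 (adjusted p = 0.00982).

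In this list 6 of 29 genes with a promoter window, or 20.7%, held ACA, any 3 bases and TGTNC on either strand, a core of the glucocorticoid response element, against 3.6% of all genes. Lcn2 (chr2:32387851-32387921, minus strand) and Map3k6 (chr4:133240609-133240679, plus strand) are shown because they were the called members that hold it. Capitals mark the motif, which begins 152 and 179 bases before the start, and in Map3k6 a match on each strand overlaps the other.
Lcn2: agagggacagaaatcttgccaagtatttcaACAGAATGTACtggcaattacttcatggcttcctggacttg
Map3k6: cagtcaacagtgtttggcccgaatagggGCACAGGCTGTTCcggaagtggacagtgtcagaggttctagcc
The shared letters describe these windows only. For Alas2, a GATA factor site (AGATAA or TTATCT) lay 86 bases before the start, in the stretch chrX:150547301-150547366 on the plus strand, shown because Alas2 was the called red cell marker with that motif.
Alas2: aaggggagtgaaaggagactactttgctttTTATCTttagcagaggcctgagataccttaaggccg
Among 8 red cell markers with a window, 2 held this short motif, against 12.7% of all genes.

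Enzymes of ceramide and oxysterol metabolism were among the rises. Acer2 encodes an alkaline ceramidase of the Golgi, which releases sphingosine from ceramide, and it had the smallest p of all genes. Its level was 6.55, 6.14, 6.07 and 7.04 in controls and ran from 7.01 to 8.38 (median 7.99) in tumour-bearing mice. The lowest tumour-bearing mouse, replicate 6 of day 14, was the only one not above control 4. Acer2 rose by 1.45 ± 0.18 (adjusted p = 0.000795), or 2.74-fold, with 1.31, 1.46 and 1.60 on the 3 days. A second Acer2 probe set, whose mean of 3.69 lay below background, changed by 0.03. Ch25h, cholesterol 25-hydroxylase, was at 3.41, 3.47, 3.46 and 3.74 in controls, all below background. Tumour-bearing mice ran from 3.62, also below background, to 4.86 (median 4.47), and 17 exceeded every control. Ch25h rose by 0.87 ± 0.15 (adjusted p = 0.00982). Of 33 measured genes of fatty acid and lipid metabolism, 3 rose and 1 fell (12.1% called, against 0.643% of all genes). At an unadjusted p below 0.05, 39.4% were lower and 9.09% higher, against 8.92% and 5.83% of all genes.

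Some vessel and oxygen-responsive genes rose as well. Vwf, the von Willebrand factor gene of endothelium, was at 5.75, 5.40, 5.58 and 6.00 in controls and from 6.10 to 7.94 (median 7.10) in tumour-bearing mice, with no overlap. It rose by 1.34 ± 0.22 (adjusted p = 0.00688), or 2.54-fold, with changes of 1.09 on day 10 and 1.44 on day 14. Slc2a1, the glucose transporter of the blood-brain barrier, rose by 0.45 ± 0.09 (adjusted p = 0.0142). Of 12 endothelial markers, these 2 were called (16.7%, against 0.643% of all genes) and 9 had a higher mean. The list mean was 7.12 to 7.21 in controls and 7.09 to 7.69 in tumour-bearing mice. Of 34 hypoxia and glycolysis genes, 5 rose and 1 fell (17.6% called, against 0.643% of all genes), with a median change of 0.06. At an unadjusted p below 0.05, 26.5% were higher and 8.82% lower, against 5.83% and 8.92% of all genes. Hif3a, an oxygen-regulated transcription factor gene that is also on the glucocorticoid list, rose by 0.77 ± 0.14, and Ankrd37, a target of hypoxia-inducible factor, by 0.54 ± 0.10. Car9, a carbonic anhydrase gene that hypoxia induces, fell by 0.42 ± 0.09 (adjusted p = 0.0394) at a mean level of 3.60, below background. With the red cell markers as a covariate, the median change was -0.15 for endothelial markers, against 0.16 without it, and -0.0063 for hypoxia and glycolysis genes, and Vwf changed by 0.49.

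The RNA-binding protein genes Rbm3 and Cirbp, which are induced by mild cold, rose. Rbm3 was at 9.30, 9.37, 9.41 and 9.80 in controls and from 9.72 to 10.83 (median 10.38) in tumour-bearing mice, with 16 of 18 above every control. It rose by 0.78 ± 0.14 (adjusted p = 0.0115), and its 3 probe sets gave changes between 0.75 and 0.78. The change of Rbm3 was 0.47 on day 10, 0.77 on day 14 and 1.10 on day 17, and that of Cirbp was 0.25, 0.43 and 0.63. Among tumour-bearing days the F test gave an unadjusted p of 0.00197 for Rbm3 and 0.00651 for Cirbp, and called neither. Cirbp rose by 0.44 ± 0.10 over all stages. Both cold-induced genes had been placed on the circadian clock list, and they were its only 2 called members among 21 measured (9.52%, against 0.643% of all genes). The list's median change was 0.05.

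Of the genes that govern feeding, Npy, Ghsr and Ghrh rose and Nts fell. Ghsr, the ghrelin receptor gene, was at 5.54, 5.47, 5.70 and 5.84 in controls and from 5.82 to 6.37 (median 6.05) in tumour-bearing mice. The lowest tumour-bearing mouse was the only one not above control 4. Ghsr rose by 0.43 ± 0.07 (adjusted p = 0.00688), with 0.33, 0.48 and 0.49 on the 3 days. Ghrh, which encodes growth hormone-releasing hormone, was at 6.78, 7.06, 7.04 and 7.43 in controls and from 7.22 to 8.06 (median 7.70) in tumour-bearing mice. It rose by 0.57 ± 0.11 (adjusted p = 0.0121), and 15 of 18 tumour-bearing mice exceeded every control.

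Npy, the appetite-stimulating neuropeptide Y, overlapped more between groups. Its level was 7.94, 8.16, 7.73 and 9.13 in controls and ran from 8.43 to 10.00 (median 9.16) in tumour-bearing mice. Of these, 10 of 18 lay above control 4 and all 18 above controls 1 to 3. Npy rose by 0.93 ± 0.21 (adjusted p = 0.0397), with 0.54, 0.99 and 1.27 on days 10, 14 and 17. Its change was 0.63 after adjustment for the thalamus marker mean, and 0.57 when the 4 arrays with most thalamus signal were dropped. Nts encodes neurotensin, a peptide that reduces feeding when given to the brain. It was at 7.51, 7.37, 7.29 and 7.36 in controls and from 6.55 to 7.46 (median 6.70) in tumour-bearing mice, of which 17 lay below every control. Nts fell by 0.59 ± 0.11 (adjusted p = 0.0142), the largest fall of all genes called, and differed from control by -0.63, -0.44 and -0.70 on the 3 days.

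Other feeding peptides did not pass in limma. Pomc, which encodes the melanocortin precursor, was at 6.06, 6.69, 5.48 and 5.81 in controls and from 4.84 to 6.10 (median 5.45) in tumour-bearing mice. Its change was -0.56 ± 0.18 (adjusted p = 0.148), and 9 of 18 tumour-bearing mice lay below every control. Hcrt, the orexin precursor, changed by -0.39 ± 0.18 (adjusted p = 0.329) and Cartpt by 0.05 ± 0.12 (adjusted p = 0.870). Two-sided exact permutation tests of 18 against 4 mice, adjusted over 12 genes, gave adjusted p = 0.00656 each for Ghsr, Nts and Ghrh, 0.0123 for Npy, 0.0203 for Hcrt and 0.0569 for Pomc. The smallest p this design allows is 0.000273 before adjustment. These tests used the same arrays as limma, gave each mouse equal weight and were adjusted over 12 genes, so they are not separate evidence. In the 7 mice and 4 controls of day 14 alone, the same test gave adjusted p = 0.0364 for Ghsr and Ghrh and 0.0727 for Npy and Nts. For Hcrt and Pomc this exact test gave adjusted p = 0.102 and 0.436. Agrp and Pmch were not analysed here. Of 17 measured feeding peptides 1 rose and 1 fell, of 25 feeding receptors 1 rose and 0 fell, and of 24 neuroendocrine genes 1 rose and 0 fell. The called shares were 11.8%, 4.0% and 4.17%, against 0.643% of all genes. At an unadjusted p below 0.05, 11.8%, 8.0% and 16.7% were higher, against 5.83% of all genes. At that p, 23.5%, 8.0% and 12.5% were lower, against 8.92%.

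Serotonin genes gave 0 calls among 25 measured in limma, against 0.643% of all genes, so 0 calls do not set a list of this size apart. At an unadjusted p below 0.05, 0 were higher and 1 (4.0%) lower, against 5.83% and 8.92% of all genes. The gene with the smallest p was Htr7, a serotonin receptor gene, at 7.08, 6.67, 6.97 and 6.68 in controls and from 6.42 to 6.92 (median 6.67) in tumour-bearing mice. It changed by -0.20 ± 0.07 (limma adjusted p = 0.194, exact permutation adjusted p = 0.0614), and controls 1 and 3, which were high in thalamus markers, were its highest controls. Htr2c and Maoa, a receptor and a monoamine oxidase, changed by -0.017 ± 0.09 and -0.023 ± 0.05, and Htr1a, Htr1b and Htr2a by 0.06 ± 0.09, -0.04 ± 0.07 and 0.12 ± 0.09. Tph2, which makes serotonin in neurons, and the transporter gene Slc6a4 had mean levels of 3.13 and 3.08, below background. Serotonin neurons have their cell bodies in the brain stem. In data simulated with independent noise for each gene, 84% of genes changed by 0.5 and 30% of genes changed by 0.25 were called. The simulation held no differences shared by whole arrays, such as those of controls 1 and 3, so these shares may not hold here. A small change of a serotonin gene may not be detectable in these data. The signs of Htr2c and Maoa turned in some alternative fits and carry no direction.

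**Figure D3:**
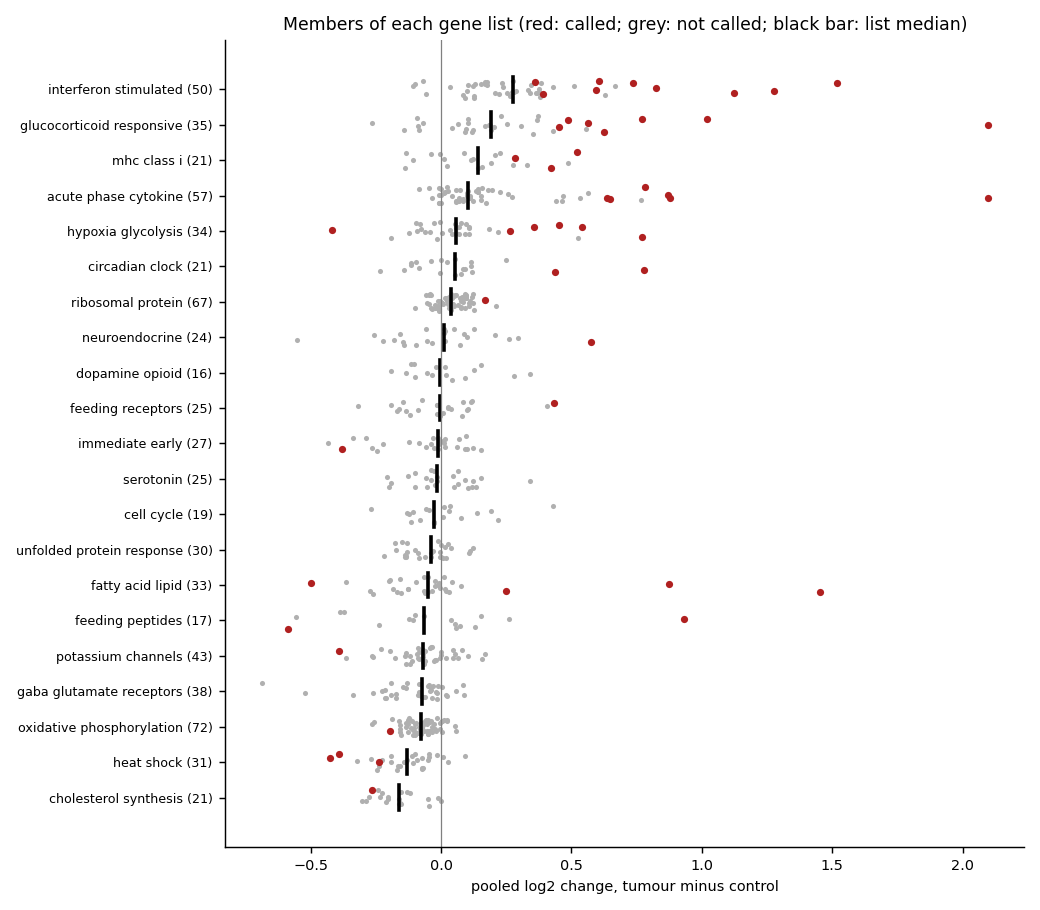
Pooled log2 change (tumour-bearing minus control) of every measured member of 21 gene lists, with called genes in red, other genes in grey and a black bar for each list's median; the number of measured members stands in brackets. Interferon-stimulated genes have the highest median, 0.27, and cholesterol synthesis genes the lowest, -0.16.

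Falls were smaller than rises and included 3 chaperone genes, 1 enzyme of cholesterol synthesis and the glial genes Fabp7 and Fcrls. Of 31 heat shock genes, 0 rose and 3 fell (9.68% called, against 0.643% of all genes). Their median change was -0.13, and 45.2% were lower at an unadjusted p below 0.05, against 8.92% of all genes. Hspe1, the mitochondrial chaperonin subunit HSP10, was at 8.92, 8.82, 8.81 and 8.86 in controls and from 8.42 to 8.75 (median 8.61) in tumour-bearing mice, with no overlap. It fell by 0.24 ± 0.05 (adjusted p = 0.0222), and both of its probe sets changed by -0.24. Hsph1, of the HSP110 family, was at 9.91, 9.84, 9.84 and 9.73 in controls and from 9.10 to 9.82 (median 9.36) in tumour-bearing mice, 17 of which lay below every control. Hsph1 fell by 0.43 ± 0.10 and the HSP40 gene Dnajb1 by 0.39 ± 0.08. Dnajb1 differed from control by -0.23, -0.40 and -0.55 on days 10, 14 and 17, with an F test p among these days of 0.00584, unadjusted and not called. The red cell covariate left a list median of -0.06, with 2 members lower at an unadjusted p below 0.05, against 14 without it.

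Heat shock promoters held the heat shock element, searched as GAA, TTC and GAA spaced by any 2 bases on both strands, in 5 of 27 genes with a window (18.5%), against 0.662% of all genes. Hspe1 (chr1:55088034-55088106, plus strand) is shown as the called member with the motif upstream of the start, where matches on both strands overlap, the nearer beginning 84 bases before the start; capitals mark them.
Hspe1: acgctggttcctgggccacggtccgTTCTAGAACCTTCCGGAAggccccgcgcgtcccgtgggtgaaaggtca
Genes of the unfolded protein response, another chaperone system, gave 0 calls among 30 measured, against 0.643% of all genes, with a median of -0.04. At an unadjusted p below 0.05, 6 (20.0%) were lower and 2 (6.67%) higher, against 8.92% and 5.83% of all genes. Manf, a secreted factor induced by stress of the endoplasmic reticulum, came closest at -0.18 ± 0.04 (adjusted p = 0.0514). The endoplasmic reticulum stress element was found in 8 of 27 genes of this list with a window (29.6%), against 0.137% of all genes. A motif share above that of all genes thus also occurred in a list with 0 called genes. Such a share does not by itself tie a motif to the changes.

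Cholesterol synthesis genes had the lowest median of the 21 pathway lists, -0.16. Of 21 measured, 20 had a lower mean and 66.7% were lower at an unadjusted p below 0.05, against 8.92% of all genes, but 1 was called. That gene, Dhcr7, which encodes the enzyme of the last step to cholesterol, was at 8.31, 7.93, 7.93 and 8.00 in controls and from 7.60 to 7.99 (median 7.78) in tumour-bearing mice. It fell by 0.27 ± 0.06 (adjusted p = 0.0428), with 17 of 18 tumour-bearing mice below every control. The list's median was -0.15 with the thalamus covariate, -0.15 with the red cell covariate and -0.14 without the 4 arrays highest in thalamus markers. In these fits 11, 4 and 8 members were lower at an unadjusted p below 0.05, against 14 in the main fit, and 0 were called. The sterol regulatory element letters TCACNCCAC were in 5.88% of 17 list promoters and 1.44% of all genes, and Dhcr7 did not hold them in its window.

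Oxidative phosphorylation genes shifted slightly down and ribosomal protein genes slightly up, with 1 called gene each. Of 72 oxidative phosphorylation genes, 64 had a lower mean, and the median was -0.08. The called share was 1.39%, against 0.643% of all genes, and 26.4% were lower at an unadjusted p below 0.05, against 8.92%. Ndufs8, a subunit of complex I, was at 9.81, 9.86, 9.89 and 9.87 in controls and from 9.56 to 9.79 (median 9.65) in tumour-bearing mice, and fell by 0.20 ± 0.04 (adjusted p = 0.0260). Rps20, a protein of the small ribosomal subunit, was at 10.37, 10.45, 10.43 and 10.39 in controls and from 10.49 to 10.65 (median 10.58) in tumour-bearing mice, and rose by 0.17 ± 0.03 (adjusted p = 0.0265). In both genes the groups did not overlap, although the changes were among the smallest called. Of 67 ribosomal protein genes, 49 had a higher mean, and the list's median was 0.04. Here 1.49% were called, against 0.643% of all genes, and 14.9% were higher at an unadjusted p below 0.05, against 5.83%.

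**Figure D4:**
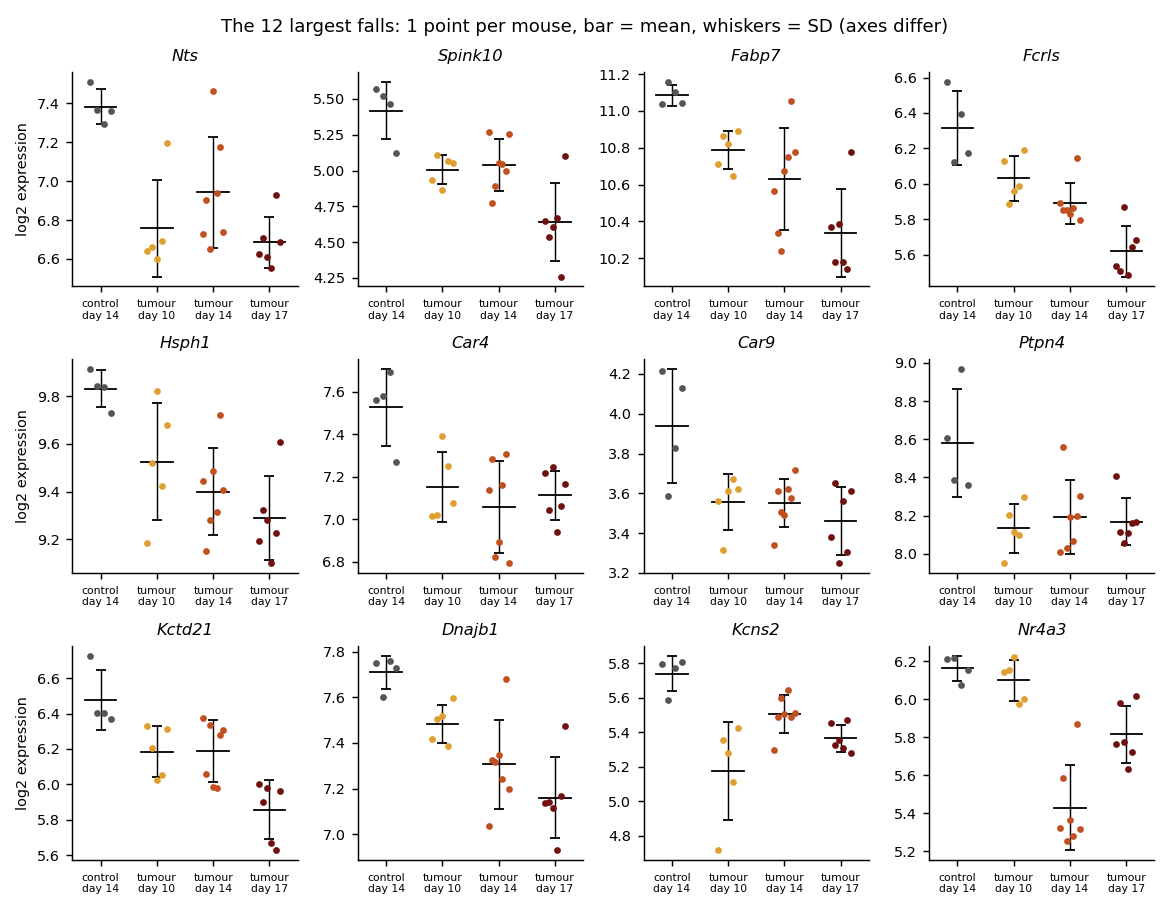
Log2 expression of the 12 genes with the largest called falls, 1 point per mouse, for controls and tumour-bearing mice of days 10, 14 and 17, with bars for group means and whiskers for SD and a separate axis for each gene. In Nts, Fabp7, Hsph1, Kctd21 and Dnajb1, 17 of 18 tumour-bearing mice lie below every control, and Nr4a3 is lowest on day 14.

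Glial genes were among the 12 largest falls. Fabp7, a fatty acid-binding protein of astrocytes and tanycytes, was at 11.03, 11.16, 11.10 and 11.04 in controls and from 10.14 to 11.06 (median 10.66) in tumour-bearing mice. It fell by 0.50 ± 0.11 (adjusted p = 0.0369). Fcrls, a marker of microglia, was at 6.58, 6.12, 6.39 and 6.17 in controls and from 5.48 to 6.19 (median 5.86) in tumour-bearing mice, 15 of which lay below every control. Fcrls fell by 0.47 ± 0.08 (adjusted p = 0.00688), and differed from control by -0.28, -0.43 and -0.70 on days 10, 14 and 17. It was the 1 called gene (7.14%, against 0.643% of all genes) of 14 microglia markers, of which 6 had a higher and 8 a lower mean. Of 12 astrocyte markers 0 were called, with 6 higher and 6 lower. Tanycyte markers, by contrast, had a higher mean in 8 of 9 genes and a median change of 0.24, with 1 called, the proteoglycan gene Vcan, which rose by 0.20. Their list mean was 5.72 to 6.30 in controls and 5.94 to 6.50 in tumour-bearing mice. Neuron markers gave 0 calls and had a lower mean in 9 of 9, with a list mean of 10.33 to 10.45 in controls and 10.18 to 10.34 in tumour-bearing mice. Of these neuron markers, 5 (55.6%) were lower at an unadjusted p below 0.05, against 8.92% of all genes. With the red cell covariate 0 were.

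The remaining large falls belonged to several functions. Spink10, of a family of serine protease inhibitors, fell by 0.52 ± 0.10, and Car4, a membrane-bound carbonic anhydrase, by 0.42 ± 0.09. Kcns2, a modulatory subunit of voltage-gated potassium channels, fell by 0.39 ± 0.08. It was the 1 called gene among 43 potassium channel genes (2.33%, against 0.643% of all genes). Of that list 23.3% were lower and 2.33% higher at an unadjusted p below 0.05, against 8.92% and 5.83% of all genes. Kctd21 fell by 0.40 ± 0.09, with 17 of 18 tumour-bearing mice below every control. Ptpn4, a tyrosine phosphatase gene, fell by 0.41 ± 0.10 (adjusted p = 0.0447), and its change was -0.20 after adjustment for the thalamus markers. Controls 1 and 3, high in thalamus markers, were the highest controls for Ptpn4, at 8.61 and 8.97 against 8.38 and 8.36. Receptors of GABA and glutamate, dopamine and opioid genes and cell cycle genes gave 0 calls among 38, 16 and 19 measured, against 0.643% of all genes. At an unadjusted p below 0.05, 11, 2 and 1 were lower, or 28.9%, 12.5% and 5.26% against 8.92% of all genes. At that p, 3 cell cycle genes (15.8%) were higher, against 5.83% of all genes, and 0 genes of the other 2 lists.

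All 121 called genes had the same sign on the 3 days, whose contrasts share the 4 controls. They were selected on the mean of these 3 changes, so a shared sign is largely set by the selection. The F test among the 3 tumour-bearing days, in which the control mean does not enter the contrast but the controls share in the estimate of the spread, found an unadjusted p below 0.05 in 44 of the 121 genes (36.4%), against 7.02% of all genes. In 32 of these 44 genes the change from control was largest on day 17, in 7 on day 10 and in 5 on day 14. Over all genes this test called 1 gene (0.00531%), Nr4a3, an orphan nuclear receptor gene that is induced within minutes of neuronal activity. Nr4a3 was at 6.21, 6.21, 6.07 and 6.15 in controls, and its median was 6.14 on day 10, 5.32 on day 14 and 5.77 on day 17 (F test, limma adjusted p = 0.0144). It fell by 0.38 ± 0.09 over all stages (adjusted p = 0.0397), but by day it differed from control by -0.06, -0.73 and -0.35. A pooled fall therefore stood for Nr4a3 although day 10 mice lay within the control range or close to it. With tumour-bearing mice alone in the fit, limma called 0 genes and Nr4a3 had an adjusted p of 0.0852. An unadjusted p below 0.05 was then found for 1182 genes (6.28%) and for 44 of the 121 (36.4%).

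Changes of some called genes were uneven over the days, and those of others lay closer together. Arhgef33, a guanine nucleotide exchange factor gene, differed from control by 0.15, 0.43 and 0.65 on days 10, 14 and 17, and Apoc1, an apolipoprotein gene, by 0.19, 0.65 and 0.70. Serf2 lay lower in all 18 tumour-bearing mice than in every control, with changes of -0.12, -0.14 and -0.33. The moderated F test of limma gave unadjusted p = 0.000187, 0.000467 and 0.000252 for Arhgef33, Apoc1 and Serf2, and called none of them over all genes. For Lcn2, Acer2, Vwf, Il1r1, Osmr, Zbtb16, Ch25h and Tap1 the F test p lay between 0.147 and 0.888. A p that misses the threshold does not show that the days were equal. The smallest change on any day was 1.81 for Lcn2, 1.31 for Acer2, 1.09 for Vwf, 0.84 for Zbtb16, 0.78 for Il1r1, 0.75 for Ch25h, 0.56 for Osmr and 0.40 for Tap1. Apart from Osmr and Tap1, these genes were named for a large smallest-day change, so its size follows from that rule. Alas2, Slc4a1, Rsad2 and Tent5c were named by the same rule, with unadjusted F test p of 0.000853, 0.0107, 0.0262 and 0.000904.

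Among immediate early genes, which neurons switch on when they fire, low F test p were frequent. Of 27 measured, 15 had an F test p below 0.05, unadjusted, against 7.02% of all genes, and the list's median change was 0.0051, -0.11 and -0.0097 on days 10, 14 and 17. In the pooled comparison, Nr4a3 was the 1 called gene of this list (3.7%, against 0.643% of all genes).

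**Figure D5:**
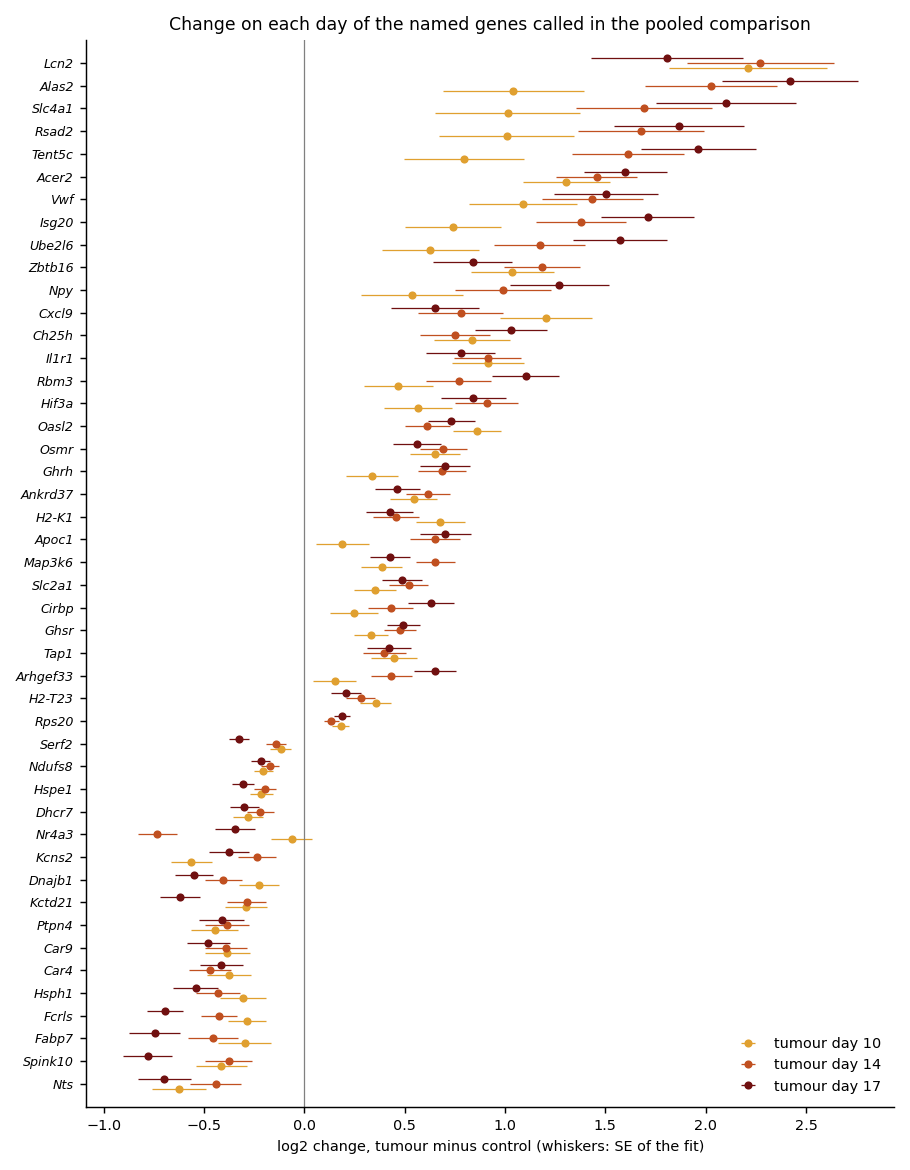
Log2 change from control on days 10, 14 and 17 (points) with SE of the fit (whiskers) for the 46 named genes called over all stages, ordered by the pooled change. The 3 points of a gene share the same 4 controls; Lcn2 and Zbtb16 are not ordered by day, while Alas2, Isg20 and Arhgef33 are lowest on day 10 and highest on day 17.

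Complete separation of the groups was uncommon. In 69 genes (0.367%) every tumour-bearing mouse lay beyond every control, 30 above (0.159%) and 39 below (0.207%). Of these 69 genes 31 were called and 38 were not. Named genes with complete separation were Vwf, Il1r1, Oasl2, Map3k6 and Rps20 above and Hspe1, Ndufs8 and Serf2 below. Rises as large as those of Lcn2, Alas2 and Rsad2 overlapped, in each case through control 4, which was also the control with the highest red cell marker mean, 4.99 against 4.55 to 4.69.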

How the data were processed

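Total RNA of 22 hypothalami was hybridised to Affymetrix whole-transcript arrays, 1 per sample. The deposited values are log2 expression, summarised by RMA per the submitters' processing notes; other settings and versions are not given in the sources used here. Of 35556 probe sets, 21218 named 1 gene, 1881 several and 12457 none in the platform annotation, and the probe set with the highest mean stood for each of 18820 genes.

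From these log2 values, 4 group means were fitted with limma 3.58.1 in R 4.3.3 (18 residual degrees of freedom, empirical Bayes without trend, 2-sided). Genes were called at a Benjamini-Hochberg adjusted p below 0.05. Exact permutation tests of 12 genes enumerated all 7315 splits. On data simulated with independent noise for each gene, genes changed by 1 were all recovered, and 1.88% of 160 calls were false. Differences shared by whole arrays were not simulated.

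Named genes were the 12 largest called rises and falls, the 10 called genes with the largest smallest-day change, the 5 with the smallest F test p among days, up to 3 called (or 2 uncalled) members per pathway list, and fixed feeding and serotonin genes. Predicted genes and olfactory receptors were not named. Ifit3 was shown by the rule for promoters, which took up to 2 called members that hold a list's motif. The comparison, the 21 pathway and 18 marker lists and the motifs were chosen with earlier results of these data known. Alternatives varied scaling, probe set choice, filters, weights, thresholds, covariates, runs of samples and single mice. Array number, not counting error, limits the precision.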

Additional observations from a re-analysis of the deposited data

Results flagged for a closer look

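In 264 tests of a named gene in a group, 23 arrays lay far from the rest of their group, where chance gives about 1 in 20 tests. Control 4 was high for Alas2 (6.41, the next control at 4.97) and Cirbp (8.21, next 7.88), control 1 for Kctd21 (6.73, next 6.40), and control 2 was low for Kcns2 (5.59, next 5.77). Replicate 3 of day 17 was high for the red cell gene Slc4a1 (7.72, next 6.59) and for Rsad2 (8.07, next 6.77), and it also had the highest red cell marker mean, 6.03. Replicate 4 of day 10 was high for Slc4a1 (6.51) and Rbm3 (10.41) and low for Oprd1 (4.83).

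Replicate 6 of day 14 was low for Acer2 (7.01, next 7.77), Ankrd37 (5.51, next 6.05) and Slc2a1 (10.11, next 10.50) and high for Fcrls (6.14, next 5.89). In each of these genes it lay on the side of the controls. Replicate 1 of day 17 was high for Zbtb16 (8.48), Ptpn4 (8.41) and Tph2 (3.62), the last below background, and it was the highest of its group in thalamus markers. Replicate 5 of day 10 was high for Nts (7.20, next 6.69) and low for Ankrd37 (5.83). Hcrt was low in replicate 3 of day 10 (9.17, next 10.16) and in replicate 3 of day 14 (9.33, next 9.97).

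Single values stood apart for Htr7 in replicate 2 of day 14 (6.92), Htr5b in replicate 1 of day 14 (4.58) and Cirbp in replicate 6 of day 17 (8.11). The change of Nr4a3 differed among tumour-bearing days (limma F test, adjusted p = 0.0144). No cause was tested for any of these values.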

How the results depend on the processing

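The 121 calls became 235 with an intensity trend, 552 with array weights, 233 with genes above background only, 223 without day 10 and 184 with a term for the first and last samples of the record. They became 78 with equal weight per mouse, 36 without day 17, 27 with the thalamus covariate, 23 at an adjusted p below 0.01 and 38 with a change of at least 0.5. Limma called 0 genes in the last 13 samples alone (2421 at an unadjusted p below 0.05), 0 without the 4 arrays highest in thalamus markers (1369) and 0 with the red cell covariate (720). The first 9 samples, with 1 control assumed to vary like the other groups, gave 1 (Acer2). Leaving out 1 mouse gave 2 to 195 calls. The count of genes beyond control range was 112 to 296 when a control was left out, against 69. Robust fitting, median centring, a second quantile normalization, the mean of probe sets, every probe set and leaving out day 14 gave 121, 130, 105, 118, 120 and 106. The F test among days called 0 genes with tumour-bearing mice alone. The cause of these differences was not tested, apart from the smaller number of samples or genes that some settings use.

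Whether replicate numbers pair the mice was not settled. Of 28 same-numbered pairs, 15 had a correlation of deviations above 0.1 (range -0.193 to 0.350), and 5 of 21 arrays were closest to their own number. Arrays from the same part of the record had a median correlation of 0.081, and arrays from different parts -0.090. Same-numbered pairs were not compared with other pairs from the same part, so these values cannot decide it. With the replicate block, 342 genes were called, more than in the main fit.

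Among the named genes, only uncalled ones changed sign in these settings. Cartpt was -0.045 in the last samples, -0.093 with the thalamus covariate, -0.16 without the 4 arrays, -0.15 with the red cell covariate and -0.028 to 0.21 with 1 mouse left out. Htr2c was 0.0028 median-centred, 0.014 after quantile normalization, 0.020 without day 14, 0.0071 in the last samples, 0.10 and 0.011 with the thalamus and red cell covariates, 0.066 without the 4 arrays and -0.087 to 0.039 with 1 mouse left out. Maoa was 0.0070 after quantile normalization, 0.0055 without the 4 arrays, 0.035 in the first samples and -0.069 to 0.015 with 1 mouse left out. Htr1a and Htr2a were -0.014 and -0.0039 with the thalamus covariate, and Htr1b -0.10 to 0.032 with 1 mouse left out. Slc6a4 was -0.052 with the red cell covariate and -0.027 in the first samples, where Oprd1 was 0.040. Tph2 was -0.0045 in the last samples.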

Other observations

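Called genes outside the rule for named genes were looked at after their values were seen. Rises included Pglyrp1, an antibacterial protein of neutrophils (0.80), Igfbp7, an insulin-like growth factor binding protein of vessels (0.57), and Tgm2, a transglutaminase (0.62), in each of which every tumour-bearing mouse lay above every control. Ptgs2, the inducible cyclooxygenase that makes prostaglandins in fever, rose by 0.78 (limma adjusted p = 0.0341), Ifitm3, an interferon-induced membrane protein, by 0.82 and the chemokine gene Cxcl10 by 0.65. Fkbp5, a co-chaperone of the glucocorticoid receptor, rose by 0.56 (adjusted p = 0.0115). Proteoglycan genes of the extracellular matrix went both ways: Vcan rose by 0.20 and Ncan fell by 0.38 (adjusted p = 0.0193), each without overlap between the groups. Nog, a secreted inhibitor of bone morphogenetic proteins, fell by 0.32, and Agpat5, an acyltransferase of phospholipid synthesis, by 0.28, also without overlap.

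Of 12 meningeal fibroblast markers, 11 were higher on average and 0 called. Their list mean was 5.72 to 6.30 in controls and 5.45 to 6.95 in tumour-bearing mice.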
